A study of Homo sapiens with 6 samples.

Results

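The genes described here mark epithelial and mesenchymal state in breast cancer cells. The 33 were chosen by name for that state, with earlier results of these data already known. A probe set was assigned to a gene where the array's annotation names that gene alone, under its current symbol or an older one matched through the Entrez identifier. This gave 70 probe sets for 32 of the 33 genes, among 22283 probe sets for 11963 named genes on the array, and KRT17 had none. Of the 33 genes, 24 were grouped as epithelial and 9 as mesenchymal (CDH2, CDH11, CD44, THY1, VIM, ZEB1, ZEB2, SNAI2 and TWIST1). All samples were cells of MDA-MB-231, a long-established line from a human breast cancer, electroporated with an siRNA against parathyroid hormone-related protein (siPTHrP) or with siLuc, the control siRNA, and harvested after 3 days. The 3 experiments each contributed 1 array per siRNA, which makes 3 arrays in each of the 2 groups, and both groups had been electroporated. The comparison asked which genes answer to the siRNA against PTHrP within an experiment.

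Epithelial cells hold together through E-cadherin (CDH1), tight junctions built from claudins and occludin, and desmosomes anchored to keratin filaments. In the epithelial to mesenchymal transition, repressors of the ZEB, SNAI and TWIST families shut down such genes, and cells gain vimentin filaments and other cadherins. Luminal breast cells further carry the oestrogen receptor (ESR1) with GATA3 and FOXA1, while MDA-MB-231 is known as an oestrogen receptor negative, mesenchymal-like line.

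One array, siLuc of experiment 1, was unlike the other 5, and its values bear on every result below. Its Spearman correlations with the others over all probe sets were 0.716 to 0.725, against 0.882 to 0.96 among those 5. Probe sets of low intensity were brighter on it: its lower quartile of signal was 251, against 150 to 211 on the others. Because such signals are noisy, only probe sets at or above the 40th percentile of mean log2(signal + 16) were tested, which corresponds to a signal of about 376. Of the 70 probe sets of the genes described here 41 were kept, for 24 genes, and 29 were dim. The siLuc array of experiment 1 had the highest of the 6 signals in 20 of the 41 kept and 15 of the 29 dim probe sets, against 30.2% of all kept and 49.9% of all dim probe sets. The PTHrP transcript itself was not analysed here, and the labels were thus not checked against the knockdown.

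With siLuc most markers of a mesenchymal-like line were bright, with exceptions, while those of hormone-responsive cells ranged from dim to bright. VIM, encoding vimentin, lay above 99.7% or more of the probe sets on each siLuc array. The brightest CD44 probe set lay above 96.4% to 98.5%, and those of MSN, CAV1 and AXL, 3 further genes of mesenchymal-like breast lines, above at least 89% of them. Both CDH1 probe sets and the single one of PGR, the progesterone receptor, were dim. ESR1 had 9 probe sets, of which 7 were dim, and the one with the highest mean lay above 41.8% to 71.9%. FOXA1 and GATA3 were in the middle of the range, with brightest probe sets above 33.9% to 50.1% and 51% to 64.1%. The epithelial KRT18, TJP1 and KRT8 were bright, above 96.7% to 97.2%, 87.8% to 90.6% and 81.2% to 86.3%. The mesenchymal repressors ZEB2 and TWIST1 were dim, above 3.75% to 7.51% and 12.1% to 42.5%. Percentiles place a probe set on its array and are not levels of transcript, since probe sets differ in affinity. Of 10 probe sets for 6 leukocyte genes 3 were kept, and of 9 for 6 endothelial genes 2.

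None of the 41 kept probe sets passed the threshold between siPTHrP and siLuc. The comparison was made with limma on log2(signal + 16), with the experiment as a block and Benjamini-Hochberg adjustment over all 13329 kept probe sets, and the smallest adjusted p of a member was 0.36. No probe set of the array passed (0%). At an unadjusted p under 0.05, 4 member probe sets were higher with siPTHrP, or 9.76%, against 6.77% of all kept probe sets, and 1 was lower, or 2.44%, against 5.36%. The lower one was of KRT5, which was kept through its siLuc signal alone, and that favours a lower value. Without experiments 1, 2 and 3 in turn the higher and lower counts were 4 and 5, 2 and 0, and 0 and 2, so their split depends on single experiments. The 3 siPTHrP signals lay all above the 3 siLuc signals in 4 of 41 (background 8.94%) and all below in 2 of 41 (background 9.69%). The sign was the same in all 3 experiments in 15 of 41, or 36.6%, where all kept probe sets gave 38.1%. With counts this small, these shares cannot be told from those of the array as a whole. The 3 arrays of each group limit the precision of every value.

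Neither the epithelial nor the mesenchymal genes had a common direction. Taking the brightest kept probe set of each gene, 7 of 17 epithelial genes had a log2 fold change above 0, with a median of -0.08, and 3 of 7 mesenchymal genes did, with a median of -0.10. Of all kept probe sets 52.5% were above 0, with a median of 0.03. The epithelial median was -0.40, 0.01 and 0.08 in experiments 1, 2 and 3, and the mesenchymal one -0.50, 0.18 and 0.02. Both were lowest in experiment 1, the one with the siLuc array that was unlike the rest. Over all kept probe sets the medians were 0.08, -0.04 and -0.02, so the array as a whole was not lowest in experiment 1. What part that siLuc array had in the member medians was not tested. Without experiment 1 the limma fit gave 0 member probe sets past the threshold, while 33 of the 13329 kept in that fit passed (0.248%). Leaving out experiment 2 or 3 also gave 0 members, against 0.353% and 1.61% of all probe sets kept. Each of these fits had 1 residual degree of freedom, so its p-values rest mostly on a variance shared over probe sets. Without the siLuc array of experiment 1 alone, and with no block, no probe set of the array passed.

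**Figure D1:**
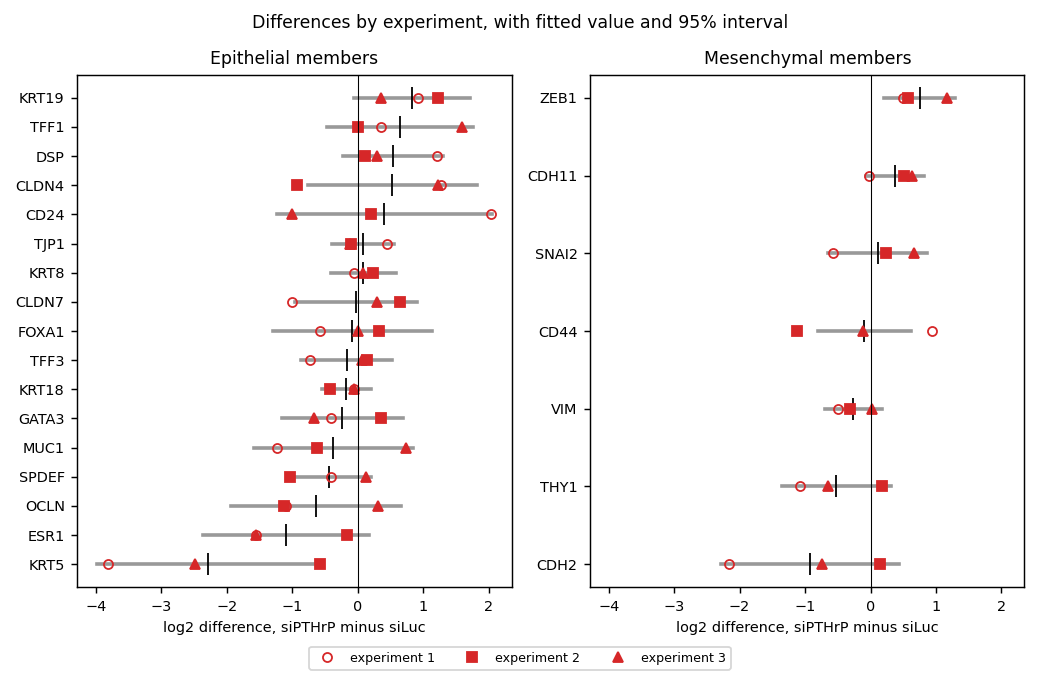
Log2 difference of siPTHrP minus siLuc (x axis) for the brightest kept probe set of 17 epithelial and 7 mesenchymal genes, with 1 point per experiment, the limma estimate as a black tick and its 95% interval as a grey bar. KRT5 at -2.29 and ZEB1 at 0.75 are the 2 genes whose bars do not cross 0, and neither passed after adjustment. KRT5 was kept through its siLuc signal alone, which favours a value below 0.

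ZEB1, a zinc finger repressor of CDH1 and other epithelial genes, had the smallest p of the kept member probe sets in this fit. It was 0.013 before adjustment by limma, next to 0.0134 for KRT5. With no block KRT5 had the smaller p in limma, at 0.00842 against 0.0111. With no filter a probe set of KRT7 had the smallest among members, at 0.00686. The brightest probe set of ZEB1 gave 1967.7, 2367 and 1680 with siLuc and 2771, 3550 and 3794 with siPTHrP in experiments 1, 2 and 3. All siPTHrP signals lay above all siLuc signals, and the difference was widest in experiment 3. The group means were 2005 ± 345 and 3372 ± 534 (SD, n = 3). This was 0.75 (SE 0.24) on the log2 scale, or 1.68-fold with a 95% interval of 1.15 to 2.45, and limma's adjusted p was 0.36. Without experiment 1 it was 0.87 (limma adjusted p = 0.134). The other probe sets of ZEB1 were less uniform. One, with 491 ± 299 and 730.3 ± 219, gave 0.73 (SE 0.55), and the other, with 1212 ± 603 and 1180 ± 136, gave 0.06 (SE 0.36). In the second of these the sign turned in experiment 1, at -0.51, where experiments 2 and 3 gave 0.31 and 0.38.

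The other repressors gave no separation that could be tested. SNAI2, also called Slug, had 2011.4, 1493 and 927 with siLuc and 1343, 1765 and 1488 with siPTHrP, 1.08-fold with a 95% interval of 0.639 to 1.83 (limma adjusted p = 0.902). The groups overlapped fully. ZEB2, the paralogue of ZEB1, was dim on every array, at 76.5, 36 and 69 with siLuc and 153, 119 and 172 with siPTHrP, so that its groups did not overlap but its signals stayed under the limit for testing. TWIST1 was dim on average, at 642.6, 134 and 99 with siLuc and 233, 13 and 76 with siPTHrP, with its highest value on the siLuc array of experiment 1.

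VIM, the filament protein of mesenchymal cells, kept a very high signal in both groups. It had 136320.9, 121601 and 151824 with siLuc and 96463, 97555 and 154350 with siPTHrP. The pairs of experiments 1 and 2 were lower with siPTHrP and that of experiment 3 was level. The fold was 0.833 with a 95% interval of 0.615 to 1.13 (limma adjusted p = 0.561). The log2 fold change of -0.26 turned to 0.07 with quantile normalization, so VIM has no settled direction.

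CD44, the hyaluronan receptor that is high in mesenchymal-like breast cancer cells, had 8 probe sets, of which 6 were kept. The brightest had 8823.6, 24699 and 17738 with siLuc and 16924, 11342 and 16377 with siPTHrP, 0.933-fold with a 95% interval of 0.569 to 1.53. The siLuc array of experiment 1 was the lowest of the 6 there, and the sign was positive in experiment 1 and negative in experiments 2 and 3. The smallest p came from another probe set, at 8099.9, 12084 and 8464 with siLuc and 13426, 13022 and 9927 with siPTHrP. On it siPTHrP was higher in 3 of 3 experiments by 0.36 on the log2 scale (SE 0.18), with an adjusted p of 0.453 in limma, while the groups overlapped. Without experiment 1 it was 0.17. Of the 6 kept probe sets 4 had a log2 fold change above 0, and all 6 had a positive difference in experiment 1. Without that experiment 2 were above 0 and 4 below, and the brightest went from -0.10 to -0.62, so CD44 has no settled direction. THY1, the surface glycoprotein CD90, had 3 kept probe sets, all with a log2 fold change below 0, but 2 of them were kept through their siLuc signal alone, so their sign follows in part from the filter. Its brightest had 2505.3, 990 and 1131 with siLuc and 1181, 1121 and 714 with siPTHrP, -0.52 (SE 0.37, limma adjusted p = 0.551). The highest value was again the siLuc array of experiment 1, and without experiment 1 the log2 fold change was -0.24.

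**Figure D2:**
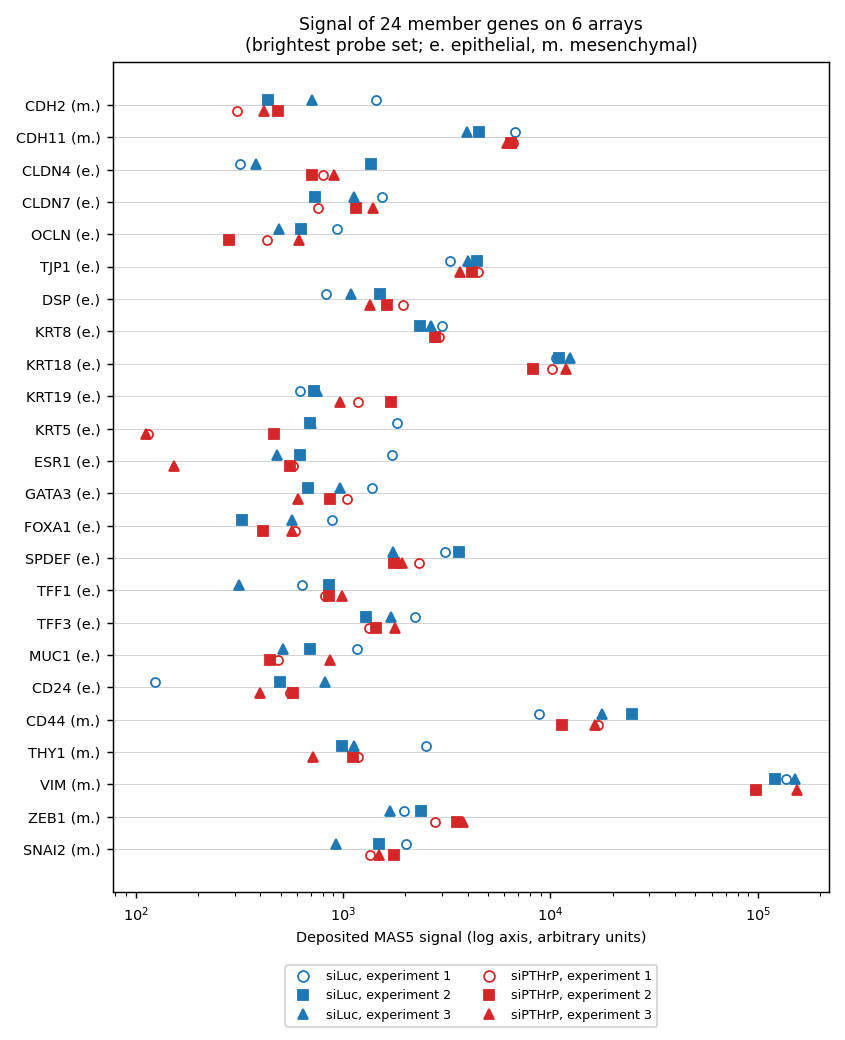
Deposited signal (log axis, arbitrary units) of the brightest kept probe set of 24 genes on the 6 arrays, siLuc in blue and siPTHrP in red, with open symbols for experiment 1. For ZEB1 and KRT19 the red symbols lie right of the blue ones, for KRT5 left of them, and for most other genes they mix; positions of different genes are not comparable.

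The kept cadherin probe sets had fitted values of both signs, and none passed the threshold. CDH11, a cadherin of mesenchymal cells and osteoblasts, was bright on both of its probe sets. The first gave 3054.1, 3790 and 2781 with siLuc and 4724, 4254 and 4367 with siPTHrP. All siPTHrP signals were above all siLuc signals, a log2 fold change of 0.48 (SE 0.21), or 1.39-fold with a 95% interval of 1.01 to 1.93, and limma's adjusted p was 0.408. The second, brighter one gave 6743.5, 4515 and 3952 with siLuc and 6624, 6448 and 6161 with siPTHrP. There the groups overlapped because of experiment 1, where the difference was -0.03, against 0.51 and 0.64 in experiments 2 and 3, and the fitted log2 value was 0.38 (SE 0.20), with limma's adjusted p at 0.457. CDH2, N-cadherin, had 1 kept probe set, at 1444.1, 437 and 707 with siLuc and 309, 484 and 417 with siPTHrP. Its fitted log2 value of -0.92 (SE 0.60), with limma's adjusted p at 0.524, went to -0.30 without experiment 1. CDH1, E-cadherin, was dim in both groups, at 381.6, 436 and 120 with siLuc and 23, 34 and 237 with siPTHrP on one probe set. On its other probe set it had 504.6, 10 and 60, and 14, 29 and 32. Differences in the pairs ran from -3.35 to 0.90 on the first, so these signals give no direction. CDH3, P-cadherin of basal cells, was also dim, at 156.6, 62 and 104 with siLuc and 61, 32 and 33 with siPTHrP, all lower.

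Keratins of simple epithelium, which build filaments as KRT8 and KRT18 pairs, were bright and level. KRT8 had 3005.4, 2364 and 2657 with siLuc and 2892, 2768 and 2809 with siPTHrP, 1.06-fold with a 95% interval of 0.752 to 1.49. KRT18 had 10609.2, 10981 and 12381 with siLuc and 10147, 8223 and 11920 with siPTHrP, 0.884-fold with a 95% interval of 0.681 to 1.15 and a lower value in 3 of 3 experiments. Both probe sets are of a kind that can bind related sequences, and both genes have processed pseudogenes, so their signals may be shared. KRT19, also a keratin of simple epithelium, differed in pattern, at 618.3, 726 and 750 with siLuc and 1187, 1713 and 966 with siPTHrP. The 3 siLuc values were close together, at 698.1 ± 70.1, and all siPTHrP values lay above them, at 1289 ± 384 (SD, n = 3). On the log2 scale the fold change was 0.83 (SE 0.39), with limma's adjusted p at 0.429, and without experiment 1 it was 0.79.

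KRT5, the keratin of basal cells, gave the largest difference among kept members. It had 1815.4, 695 and 703 with siLuc and 115, 464 and 112 with siPTHrP. All siPTHrP signals were lower, with log2 differences of -3.81, -0.57 and -2.49 in experiments 1, 2 and 3. The log2 fold change was -2.29 (SE 0.75), or 0.205-fold with a 95% interval of 0.0635 to 0.661, and limma's adjusted p was 0.36. Without experiment 1 it was -1.53. With siPTHrP its mean lay under the limit for testing, so the probe set was kept through its siLuc signal, which favours a lower value. The same was true of 4 others, 2 each of ESR1 and THY1, while the one of CD24 was kept through its siPTHrP signal. KRT7, another simple keratin, was dim on both probe sets, and they went opposite ways without overlap. One gave 232.8, 302 and 122 with siLuc and 615, 521 and 468 with siPTHrP, the other 1032.7, 94 and 473 and then 25, 26 and 70. KRT7 has no settled direction.

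Junction genes were mixed. TJP1, the tight junction scaffold ZO-1, was the steadiest on its brightest probe set. There it had 3271.2, 4453 and 4009 with siLuc and 4480, 4167 and 3683 with siPTHrP, 1.06-fold with a 95% interval of 0.761 to 1.46. Its other kept probe set had 1539.9, 1490 and 885 with siLuc and 1298, 1093 and 870 with siPTHrP. That one was lower in 3 of 3 experiments, at 0.849-fold with a 95% interval of 0.504 to 1.43, while the groups overlapped. The sign for TJP1 thus depends on the probe set. DSP, desmoplakin of the desmosome plaque, had 828, 1509 and 1096 with siLuc and 1939, 1631 and 1354 with siPTHrP. It was higher in 3 of 3 experiments, but the groups overlapped and the gap was widest in experiment 1, at 1.21 against 0.11 and 0.30. On the log2 scale the fold change was 0.54 (SE 0.34), with limma's adjusted p at 0.511, and without experiment 1 it was 0.21. The claudins CLDN4 and CLDN7, sealing proteins of tight junctions, spread widely, with pair differences of 1.28, -0.93 and 1.23 for CLDN4 and -1.01, 0.64 and 0.30 for CLDN7. OCLN, occludin, gave -1.09, -1.12 and 0.31. For these 3 genes limma's adjusted p lay between 0.642 and 0.984, and the 95% intervals of the fold reached from 0.263 to 3.52. JUP, plakoglobin, was dim, at 105 to 184.6 with siLuc and 115 to 293 with siPTHrP.

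EPCAM and CLDN3 were dim as well, and here the groups did not overlap. EPCAM, the epithelial cell adhesion molecule, had 245, 39 and 41 with siLuc and 342, 298 and 263 with siPTHrP, with pair differences of 0.46, 2.51 and 2.29. One of the probe sets of CLDN3 had 169.8, 211 and 254 with siLuc and 116, 61 and 77 with siPTHrP, while the other overlapped. Among the 29 dim member probe sets 4 had all siPTHrP signals above (EPCAM, ZEB2 and 1 each of KRT7 and CD24), against 2.09% of all dim probe sets. A further 4 had them below (CDH3 and 1 each of CLDN3, KRT7 and GATA3), against 17%. These signals lie where mismatch subtraction makes values noisy, and no detection calls were used, so they are given as values only. Among all dim probe sets, lower with siPTHrP was far more frequent than higher, on the same arrays where the siLuc array of experiment 1 was brightest for low signals; its part in this was not tested.

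**Figure D3:**
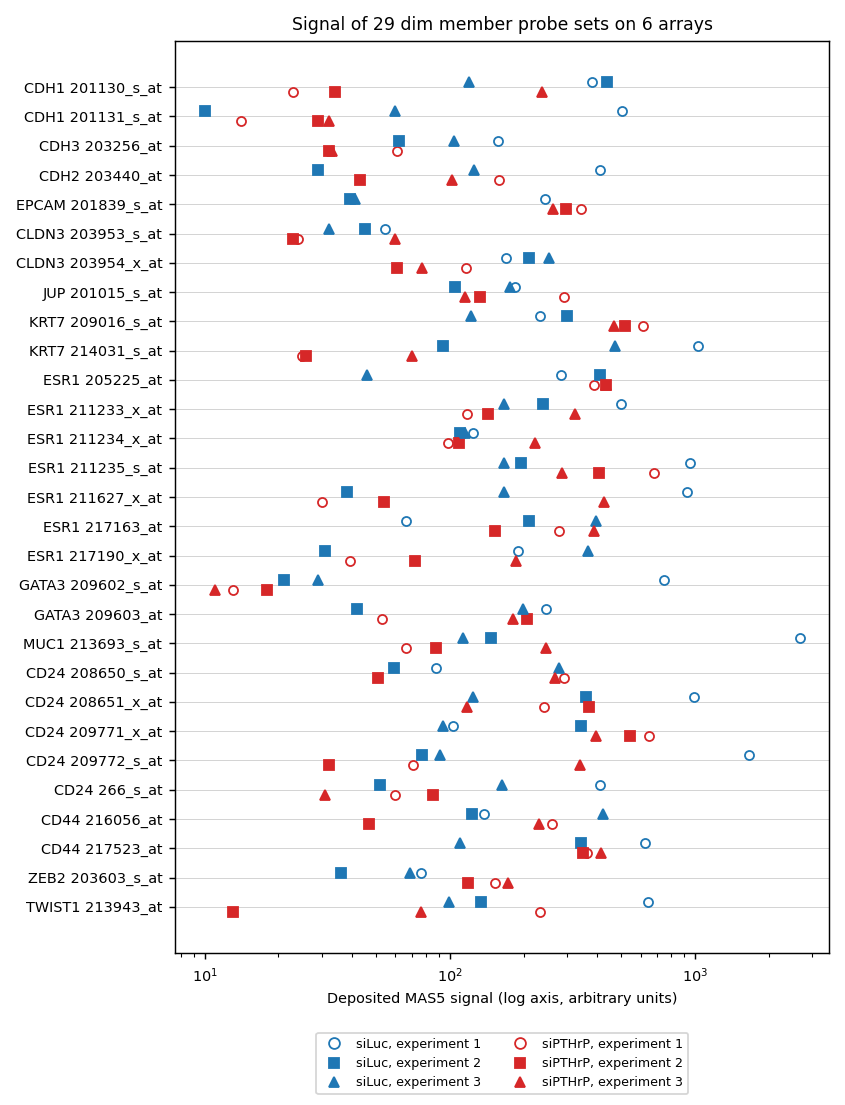
Deposited signal (log axis, arbitrary units) of the 29 dim probe sets on 6 arrays, siLuc in blue and siPTHrP in red, with open symbols for experiment 1. The open blue circle is the rightmost symbol in 15 of 29, and EPCAM and ZEB2 show red symbols right of all blue ones.

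Genes of luminal identity, which define hormone-responsive breast cells, differed in brightness, with SPDEF above 75% to 87.9% and TFF3 above 67.8% to 79.6% of probe sets with siLuc, and the brightest probe sets of the other 5 genes above 32.8% to 71.9%. Of 7 brightest probe sets 1 had a log2 fold change above 0 and 6 below, with a median of -0.24. Without experiment 1 this became 4 above and 3 below, with a median of 0.06, so the count rests on that experiment. Both kept probe sets of ESR1 were lower in 3 of 3 experiments, but both had been kept through siLuc alone, which favours that sign. The brighter had 1719.8, 622 and 482 with siLuc and 575, 555 and 154 with siPTHrP, giving -1.09 on the log2 scale (SE 0.56), with an adjusted p of 0.454 in limma, and the groups overlapped. The other had 1352.7, 379 and 580 with siLuc and 198, 304 and 396 with siPTHrP, -1.17 (SE 0.69, limma adjusted p = 0.493). In both the siLuc array of experiment 1 was the highest by far, and without experiment 1 the values were -0.86 and -0.42. The remaining 7 probe sets of ESR1 were dim, with overlapping groups in each. With no filter 4 of these had a log2 fold change above 0 and 3 below, the highest at 1.12 and higher in 3 of 3 experiments. Over its 9 probe sets ESR1 has no direction. GATA3 and FOXA1, factors that act with the oestrogen receptor on chromatin, had log2 fold changes of -0.24 (SE 0.41) and -0.08 (SE 0.54). For both the signs differed between experiments, and FOXA1 turned to 0.27 with quantile normalization.

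SPDEF, an ETS factor of luminal and secretory cells, showed how far probe sets of a gene can part. All 5 of its probe sets were kept, 2 with a log2 fold change above 0 and 3 below. One gave 1018.4, 380 and 516 with siLuc and 1148, 1347 and 1807 with siPTHrP, all higher, at 1.24 on the log2 scale (SE 0.45), with an adjusted p of 0.379 in limma. It was the only member to pass in any alternative run, with array weights, at 1.62 (SE 0.35, limma adjusted p = 0.0423), where 1.33% of all probe sets passed. Another gave 416.2, 1750 and 444 with siLuc and 1658, 1743 and 1328 with siPTHrP, 1.16 (SE 0.45, limma adjusted p = 0.393), with no difference in experiment 2. The brightest gave 3093.2, 3624 and 1749 with siLuc and 2333, 1753 and 1920 with siPTHrP, -0.44 (SE 0.28). A further one had 732.3, 543 and 634 with siLuc and 500, 516 and 240 with siPTHrP, all lower, at -0.65 (SE 0.58). All 5 are of the type marked as able to bind other transcripts, and SPDEF has no settled direction here.

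The secreted trefoil peptides and the mucin MUC1 did not move together. TFF1, a classic oestrogen-induced gene, had 635.4, 853 and 317 with siLuc and 815, 857 and 986 with siPTHrP, 1.57-fold with a 95% interval of 0.72 to 3.41. TFF3, another member of that family, had 2228.3, 1297 and 1699 with siLuc and 1340, 1438 and 1775 with siPTHrP, 0.887-fold with a 95% interval of 0.551 to 1.43, and turned from -0.17 to 0.10 without experiment 1. MUC1, a transmembrane mucin of the luminal surface, was below 0 on both kept probe sets, at 0.746-fold and 0.772-fold, with limma adjusted p of 0.755 and 0.777. Without experiment 1 they were at -0.31 and 0.06 on the log2 scale. CD24, a mucin-like surface protein that is low in CD44-high breast cancer cells, had 6 probe sets, of which 1 was kept. It gave 124.7, 498 and 815 with siLuc and 558, 573 and 396 with siPTHrP, giving 0.40 on the log2 scale (SE 0.73), with an adjusted p of 0.826 in limma. This turned to -0.41 without experiment 1.

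**Figure D4:**
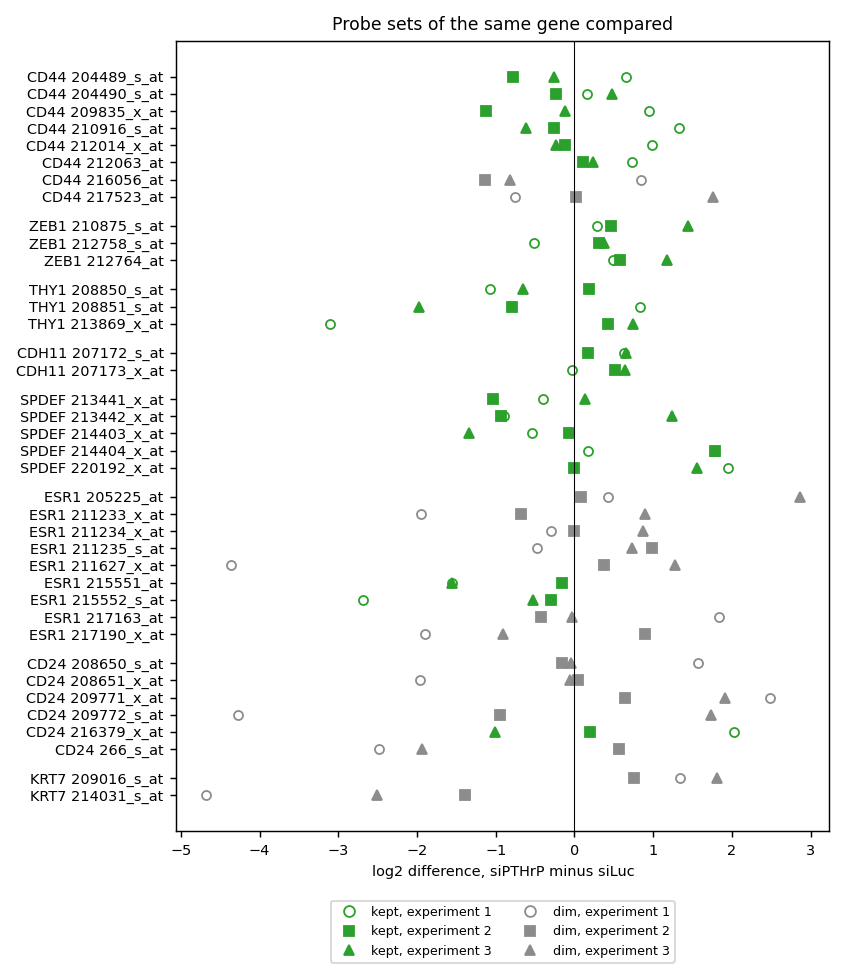
Log2 difference of siPTHrP minus siLuc (x axis) in each experiment for every probe set of 8 genes, green for kept and grey for dim, with open symbols for experiment 1. The probe sets of SPDEF and KRT7 lie on both sides of 0, while all 3 of ZEB1 and both of CDH11 have fitted values above it.

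Promoter letters are shown for 3 genes described above, because ZEB1, SNAI2 and related repressors bind E-boxes that read CACCTG, or CAGGTG on the other strand. The stretch shown is the 250 bases before the RefSeq start (GRCh38.p14), 5′ to 3′ on the gene's strand, with the E-box letters in capitals. For ZEB1, which has several listed starts, the outermost is used (chr10:31318167-31318416, plus strand). KRT5 lies at chr12:52520395-52520644 on the minus strand and DSP at chr6:7541421-7541670 on the plus strand.
ZEB1: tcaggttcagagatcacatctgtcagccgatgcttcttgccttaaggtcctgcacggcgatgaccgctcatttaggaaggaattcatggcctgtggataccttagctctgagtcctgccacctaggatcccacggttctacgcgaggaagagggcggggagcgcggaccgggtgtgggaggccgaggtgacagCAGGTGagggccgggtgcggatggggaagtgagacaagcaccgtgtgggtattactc
KRT5: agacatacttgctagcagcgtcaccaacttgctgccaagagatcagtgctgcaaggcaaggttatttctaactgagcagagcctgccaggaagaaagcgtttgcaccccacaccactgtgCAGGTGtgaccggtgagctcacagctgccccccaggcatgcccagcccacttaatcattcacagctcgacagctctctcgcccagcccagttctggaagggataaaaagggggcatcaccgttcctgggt
DSP: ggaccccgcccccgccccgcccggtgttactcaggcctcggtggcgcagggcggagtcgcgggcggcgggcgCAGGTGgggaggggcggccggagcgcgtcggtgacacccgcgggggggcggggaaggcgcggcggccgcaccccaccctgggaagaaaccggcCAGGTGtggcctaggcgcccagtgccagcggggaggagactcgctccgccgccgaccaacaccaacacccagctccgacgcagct
KRT5 has 1 such match, starting 130 bases before its start, and DSP has 2, at 178 and 85. ZEB1 has 1 match at 57 in this window. The 3 genes shown all have a match, while SPDEF, ESR1, CD44, CDH2, GATA3 and VIM have none in any listed window. Windows were listed for 20 of the 33 genes. Of these, 10 had a match in at least 1 window, 9 of 15 epithelial and 1 of 5 mesenchymal genes. Of all 27305 genes with a window, 20.6% had a match. The members had 46 windows for 20 genes, and all genes had 35116 for 27305. Members thus had more windows per gene, and the shares by gene are not on equal terms. Counted by window, 13 of 46 had one, or 28.3%, against 17.5% of all windows of this length, and some windows of a gene overlap. A match is a description of letters and says nothing of binding. Of the 3 genes shown, ZEB1 was at 1.68-fold with siPTHrP on its brightest probe set, DSP at 1.46-fold and KRT5 at 0.205-fold. None was past the threshold, and KRT5 was kept through its siLuc signal alone. Whether genes with a match differ from those without one was not tested.

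Other genes of both programmes were counted from lists chosen for the same biology, each by its brightest kept probe set, and none passed. Of 35 further epithelial junction and lineage genes, 10 were kept and 7 of these had a log2 fold change above 0, with a median of 0.25. CTNNB1, beta-catenin, which links cadherins to actin, had 3848.6, 2922 and 3259 with siLuc and 7537, 6048 and 5933 with siPTHrP. It was higher in 3 of 3 experiments by close to the same amount, at 0.96 on the log2 scale (SE 0.18), with an adjusted p of 0.287 in limma. It was 0.95 without experiment 1. ELF3, an ETS factor of epithelial cells, had 2623, 1497 and 2025 with siLuc and 861, 1006 and 644 with siPTHrP, all lower, at -1.26 (SE 0.35, limma adjusted p = 0.328). CEACAM6, an adhesion molecule, was also lower without overlap, at -0.91 (SE 0.38, limma adjusted p = 0.402). Of 13 other keratins only KRT10 was kept, at 0.19 (SE 0.22, limma adjusted p = 0.711).

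Of 16 further oestrogen-related genes 9 were kept, 4 of them above 0, with a median of -0.27. XBP1, a secretory cell factor, had 2007.5, 2270 and 1700 with siLuc and 3905, 3175 and 2359 with siPTHrP, all higher, at 0.63 (SE 0.24, limma adjusted p = 0.39). TFAP2A was at -0.69 (SE 0.47) and STC2 at -0.64 (SE 0.46), with overlapping groups. Without experiment 1 TFAP2A was at -0.14 and STC2 at -0.69. Of 37 further mesenchymal and transition genes 21 were kept, 9 of them above 0, with a median of -0.11. TCF3, which encodes the E-box factor E2A, had 26922.4, 14310 and 21701 with siLuc and 1407, 3097 and 17115 with siPTHrP on its brightest probe set, -2.26 (SE 0.55, limma adjusted p = 0.324). Its pair differences were -4.24, -2.20 and -0.34. Without experiment 1 the value was -1.27, and of its 9 kept probe sets 4 were above 0 and 5 below. COL6A2, a collagen VI chain, was at -0.84 (SE 0.38) and FN1, fibronectin, at 0.47 (SE 0.22), with overlapping groups. Without experiment 1 they were at -0.68 and 0.24. Of the leukocyte and endothelial genes that were kept, all 5 had a log2 fold change below 0. The largest were MS4A1 at -1.40 (SE 0.66) and PECAM1 at -1.40 (SE 0.39, limma adjusted p = 0.328). PECAM1 was dim on its other probe sets. ITGAM was at -0.19 (SE 0.49), CD3E at -0.41 (SE 0.54) and TIE1 at -0.32 (SE 0.40). Without experiment 1 CD3E turned to 0.26, MS4A1 was at -0.66, ITGAM at -0.16, TIE1 at -0.60 and PECAM1 at -1.44. MS4A1 was also kept through its siLuc signal alone. Over all probe sets of each list, the median signal was 182 to 765 with siLuc and 150 to 192 with siPTHrP for leukocyte genes. For endothelial genes it was 215 to 588 and 122 to 180, in both lists highest on the siLuc array of experiment 1.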

How the data were processed

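Total RNA of 6 MDA-MB-231 samples was measured on Affymetrix U133 arrays (human, type A) per the labels, each RNA on 1 array. The deposited values are linear signal intensities made with MAS5, as the submitters' processing notes say. The version and settings of MAS5 are not stated in them. The mean after trimming 2% at each end was 1500.4 to 1500.6 on all 6 arrays, and no other scaling was applied. Decimals occur in 90.1% of the values of 1 array (siLuc, experiment 1) and in none of the other 5. Its label has no number and it was taken as experiment 1 by elimination; for the siLuc array whose title says 3 and description says 2, the title was followed. The p-values rest on the spread between these 3 experiments in 1 cell line and on a variance shared over probe sets. With each RNA on 1 array, array noise is part of that spread.

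With R 4.3.3 and limma 3.58.1, log2(intensity + 16) of the 13329 probe sets at or above the 40th percentile of mean intensity (68 controls left out) was fitted with siRNA and experiment as terms, then eBayes with a trend over intensity. Residual degrees of freedom were 2, and the prior added 7.17. P-values are two-sided and Benjamini-Hochberg adjusted with a threshold of 0.05. Deviations of same-experiment arrays correlated at 0.157 each in experiments 2 and 3 and at -0.0124 in experiment 1. The other combinations gave -0.206 to 0.132, so these values do not settle the pairing, which rests on the design text. The limma steps were also run on simulated data with independent noise on each array and no experiment effect. That run does not cover the paired design of these data. Members and lists were chosen with earlier results of these data known. All 33 genes are named; full values were due to those past the threshold, filled to 10 by the smallest unadjusted p, plus VIM, CDH1, ESR1, CD44 and CD24, and up to 3 per further list. Of the annotation, 19071 probe sets name 1 gene, 1043 several and 2169 none. Alternatives were quantile normalization, median centring, a fit with no replicate block, other offsets (1 and 64) and filters, no trend, array weights, no _x_at and _s_at probe sets, and leaving out experiments or 1 array.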

Additional observations from a re-analysis of the deposited data

How the results depend on the processing

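Of the 14 alternatives to the limma fit, 13 left 0 member probe sets past the threshold, among them no replicate block, which also gave 0, and leaving out each experiment in turn, with 0 in each. Of 13329 probe sets, kept anew in each of these fits, 33, 47 and 215 passed without experiment 1, 2 and 3. Each of these fits had 1 residual degree of freedom. The prior added 13.3 without experiment 1 and 108 without experiment 2, and was infinite without experiment 3. Their p-values thus rest mostly on a variance shared over probe sets. Array weights gave 1, a probe set of SPDEF; the weights were 0.386, 2.23 and 1.16 for experiments 1, 2 and 3. At an unadjusted p under 0.05, 4 member probe sets were higher and 1 lower both with the block and without it, but this split depends on the experiments: it was 4 and 5 without experiment 1, 2 and 0 without experiment 2, 0 and 2 without experiment 3, and 4 and 4 with array weights. Over all probe sets, median centring moved that split from 903 higher and 715 lower to 1131 and 527, and among members from 4 and 1 to 5 and 1. The median of the mesenchymal genes moved from -0.10 to 0.36 without _x_at and _s_at probe sets. Only ZEB1, CD44 and SNAI2 were left there, so that median is the value of 1 probe set of CD44. VIM turned to 0.07 with quantile normalization. CD24 turned to -0.41 without experiment 1 and to -0.33 in the fit that left out only that experiment's siLuc array and had no block; without experiment 2 it was 0.51. Among the other named members, the log2 fold changes of ZEB1 stayed between 0.54 and 0.87 over 14 alternatives, and those of KRT19 between 0.64 and 1.07 over 14. Those of KRT5 lay between -2.40 and -1.49 over the 11 alternatives in which it was kept. It was left out by the filter at the 60th percentile, without experiment 2, and without the siLuc array of experiment 1. In the main fit KRT5 was kept through its siLuc signal alone. Low signals limit the rest: 29 of 70 probe sets lay under the intensity limit.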
